A study of Homo sapiens with 12 samples.

Results

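Immediate early genes are genes whose transcription is switched on within minutes of a growth factor or stress signal, without the need for new protein. Such genes were followed here by name, as 10 of the 17508 genes in a table of exon and intron counts: FOS, FOSL1, FOSL2, JUN and JUNB, whose proteins pair to form the transcription factor AP-1; EGR1, a zinc finger transcription factor; IER2 and IER3, named as immediate early response genes; DUSP1, a phosphatase that removes the activating phosphates from MAP kinases; and MYC, the E-box binding transcription factor that drives growth and ribosome production. The members were chosen by name and matched by their Ensembl identifiers, and all 10 were found. An exon entry was present for 9 of them (all but IER2) and an intron entry for 8 (all but JUN and JUNB, whose canonical transcripts have a single exon), so 7 had both.

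The counts came from poly(A)-selected RNA of TYK-nu cells, a cell line labelled as a high grade serous ovarian adenocarcinoma. The cells were grown with 15 μM cisplatin, a platinum drug that crosslinks DNA, or with DMSO as the control. RNA was taken after 24 or 72 h, which gives 4 groups of 3 replicates and 12 libraries. All 12 libraries are of the same line in the same medium with serum, and the earliest sampling was at 24 h. By their labels, the groups differ in the added agent and its duration. Cell density at harvest, renewal of the medium and harvest day are not stated for these cultures. Exon and intron counts together summed to between 18526830 and 68753262 in a library. The 9 members with exon entries took between 0.186 and 0.209% of the exon counts in the 6 libraries at 24 h and between 0.286 and 0.306% in the 6 libraries at 72 h. Replicates were compared before they were averaged, and every pair of replicates of a group differed by more than sampling noise.

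The labelled cell type was checked against marker genes, in CPM, the exon counts of a gene scaled to the library size. Of the epithelial and ovarian cancer markers, KRT18 lay between 132.6 and 181.2 CPM and MECOM between 108.5 and 127.6 CPM in the 12 libraries. KRT8 lay lower, between 11.0 and 34.5 CPM, WT1 between 1.59 and 4.19 CPM and KRT19 between 1.19 and 2.79 CPM. PAX8, a transcription factor of the Müllerian lineage, reached at most 0.0758 CPM and was at 0 in 5 libraries. EPCAM reached at most 1.68 CPM, and MUC16 had no entry. The endothelial genes PECAM1 (1350 to 2491 CPM) and CDH5 (658 to 1046 CPM) were far higher, while VWF stayed at or below 1.202 CPM. Of 7 further endothelial genes, chosen after values of these data were seen, TIE1 lay between 1649 and 2571 CPM, KDR, TEK, ESAM and ROBO4 between 134.7 and 490.3 CPM, ERG between 4.47 and 7.11 CPM and EMCN at or below 0.0957 CPM. The defining markers therefore go partly against the label, and the cells are called by their label here without a further name. Fibroblast markers summed to at most 0.209 CPM (COL3A1 and LUM at 0 in all 12 libraries) and blood cell markers to at most 1.005 CPM (PTPRC at 0 in all 12).

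As background, the members fall into layers of one signaling route. Growth factor receptors and stress signals reach the ERK, JNK and p38 MAP kinases, which activate serum response factor with its ELK partners at CArG boxes and CREB at cyclic AMP response elements (CRE). These sites lie in promoters of genes such as EGR1, FOS and JUNB. The FOS and JUN family proteins then act as AP-1 on late genes, while DUSP1 feeds back on the kinases. The transcripts of FOS, EGR1, IER2 and MYC are short-lived, so that their level follows synthesis closely.

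Promoter sequences are shown for EGR1 and JUNB, the members with the largest changes of exon counts below, and for DUSP1, whose exon and intron counts parted most in cisplatin. They are the 250 bases before the transcription start, from the promoter table of RefSeq on GRCh38.p14, which held 7 of the 10 members. FOSL1, IER3 and MYC had no entry in it. Capitals mark matches, on either strand, to the CArG box, the CRE (TGACGTCA), its core TGACG, the AP-1 site (TGANTCA) and the TATA box (TATAAA), and a core may lie within a CRE.
EGR1 (chr5:138465229-138465478, plus strand): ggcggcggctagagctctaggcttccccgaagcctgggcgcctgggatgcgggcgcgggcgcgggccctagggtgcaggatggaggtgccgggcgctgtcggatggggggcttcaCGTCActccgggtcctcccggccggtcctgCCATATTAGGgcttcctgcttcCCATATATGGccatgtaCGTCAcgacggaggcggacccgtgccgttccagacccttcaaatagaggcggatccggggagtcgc
JUNB (chr19:12791236-12791485, plus strand): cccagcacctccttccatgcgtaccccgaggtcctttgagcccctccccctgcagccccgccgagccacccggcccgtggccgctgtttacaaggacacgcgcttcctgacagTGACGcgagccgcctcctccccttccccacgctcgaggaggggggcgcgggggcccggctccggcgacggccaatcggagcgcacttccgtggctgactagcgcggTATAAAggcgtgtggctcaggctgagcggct
DUSP1 (chr5:172771196-172771445, minus strand): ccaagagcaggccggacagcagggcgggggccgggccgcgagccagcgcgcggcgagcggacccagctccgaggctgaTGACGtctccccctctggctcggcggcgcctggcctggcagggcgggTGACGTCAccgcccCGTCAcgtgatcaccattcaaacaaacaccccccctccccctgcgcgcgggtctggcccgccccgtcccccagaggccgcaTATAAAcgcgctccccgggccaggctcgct

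Motifs were searched from 250 bases before to 50 bases after the start, with the start as position 0. The EGR1 window held 2 CArG boxes, with first bases at -105 and -83, and 2 CRE cores, at -135 and -66. The JUNB window held 1 CRE core, at -137, and a TATA box at -31. The DUSP1 window held 1 CRE, at -125, 4 CRE cores of which 2 overlap that CRE, an E-box (CACGTG) at -108, 4 GC boxes (GGGCGG) and a TATA box at -30. Among 27305 promoter windows of the same length, a CArG box was present in 1.29%, a CRE in 1.98%, a CRE core in 25%, an AP-1 site in 7.76%, an E-box in 7.43%, a GC box in 44.6% and a TATA box in 12%. Of the other members in the table, FOS held a CRE core at -64 and a TATA box at -33, FOSL2 an AP-1 site at 4 and 2 CRE cores, JUN a CRE core at -123 and IER2 a CRE core at -140. EGR1 was the 1 member among these 7 with a CArG box in the window, and DUSP1 the 1 member with a complete CRE. These matches are descriptions of letters and not of bound sites.

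Levels of the members were compared with each other as exon CPM per kilobase of exon (the union of the exons of GENCODE release 44). In DMSO at 24 h, JUN was highest, at 209.7 ± 15.6 CPM per kilobase (SD, n = 3), above 98.4% of the 10436 genes with a value. FOSL1 followed with 171.2 ± 10.8, DUSP1 with 155.9 ± 6.36 and IER3 with 141.8 ± 9.19 CPM per kilobase. The next members stood well below these 4 genes, with EGR1 at 26.4 ± 1.89, JUNB at 22.3 ± 3.04, FOSL2 at 21.1 ± 1.197 and MYC at 14.5 ± 1.03 CPM per kilobase. FOS was lowest at 5.48 ± 0.552 CPM per kilobase, above 46.8% of genes. The neighbors DUSP1 and IER3, EGR1 and JUNB, and JUNB and FOSL2 overlapped between libraries in this group, and the other neighbors did not. In DMSO at 72 h, the order was JUN (356.6), IER3 (245.8), DUSP1 (193.7), FOSL1 (154.5), EGR1 (63.3), JUNB (46.2), FOSL2 (27.7), MYC (20.5) and FOS (7.25 CPM per kilobase), with no overlap between neighbors. FOSL1 thus went from the second to the fourth place. With the length of the canonical transcript in place of all exons, MYC in DMSO at 24 h was at 23.8 CPM per kilobase, above JUNB (22.3) and FOSL2 (22.5), and FOS at 8.30, still the lowest.

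The first comparison asked how the members differed between 72 and 24 h of culture in DMSO. By exon counts, 8 of the 9 members tested were higher at 72 h and 1, FOSL1, was lower (edgeR's quasi-likelihood test, Benjamini-Hochberg adjusted p under 0.05). Exon counts of 65.1% of the 10444 genes tested were called in this comparison, 32.6% of genes were called higher and 32.5% lower, so the share of 8 of 9 that were higher stands against that background. The median log2 change of the members was 0.50, against 0.015 over all genes tested (quartiles -0.30 and 0.36). A log2 change above 1 was seen in 2 members and in 6.45% of all genes, and a change above 0.5 in 4 members and in 18.4% of all genes. The 3 libraries at 72 h did not overlap those at 24 h in exon CPM for 9 of 9 members, nor for 67.4% of all genes.

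The same times in cisplatin gave a like picture. Of the 9 members, 8 were higher at 72 h and FOSL1 did not pass the test. The background was 63.5% of genes called, 32% called higher and 31.5% called lower, and the libraries of both times did not overlap for 8 members and for 67.2% of genes. The median log2 change was 0.62 over the members and 0.017 over all genes. A log2 change above 1 was seen in 1 member and in 5.58% of genes, and above 0.5 in 6 members and in 17.2% of genes. The summed CPM of the 3 endothelial markers PECAM1, CDH5 and VWF went down with time, from 3434 to 3474 in DMSO at 24 h to 2033 to 2125 at 72 h, and from 3355 to 3479 in cisplatin at 24 h to 2165 to 2307 at 72 h. The summed CPM of the 7 epithelial and ovarian cancer markers with exon entries lay between 306.7 and 318.8 at 24 h and between 279.7 and 284.5 at 72 h in DMSO, without overlap, and between 302.0 and 311.9 and between 298.3 and 304.2 in cisplatin, with overlap. Of the 7 further endothelial genes, ESAM was lower at 72 h in every library (439.8 to 459.3 against 369.0 to 382.8 CPM in DMSO and 435.1 to 490.3 against 383.0 to 398.6 CPM in cisplatin) and TEK in DMSO (148.6 to 154.3 against 134.7 to 146.8 CPM). TIE1 was higher at 72 h in every library (1711 to 1888 against 2331 to 2520 CPM in DMSO and 1649 to 1916 against 2396 to 2571 CPM in cisplatin), as were KDR (253.1 to 259.7 against 279.5 to 288.8 CPM) and ERG (4.49 to 4.90 against 5.90 to 7.11 CPM) in cisplatin. TEK in cisplatin, KDR and ERG in DMSO, and ROBO4 in both treatments overlapped between the times, and EMCN stayed at or below 0.0957 CPM. The part of these genes in the members' changes was not tested. In bulk samples, a change in the share of cells that transcribe a gene and a change in RNA per cell cannot be told apart.

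**Figure D1:**
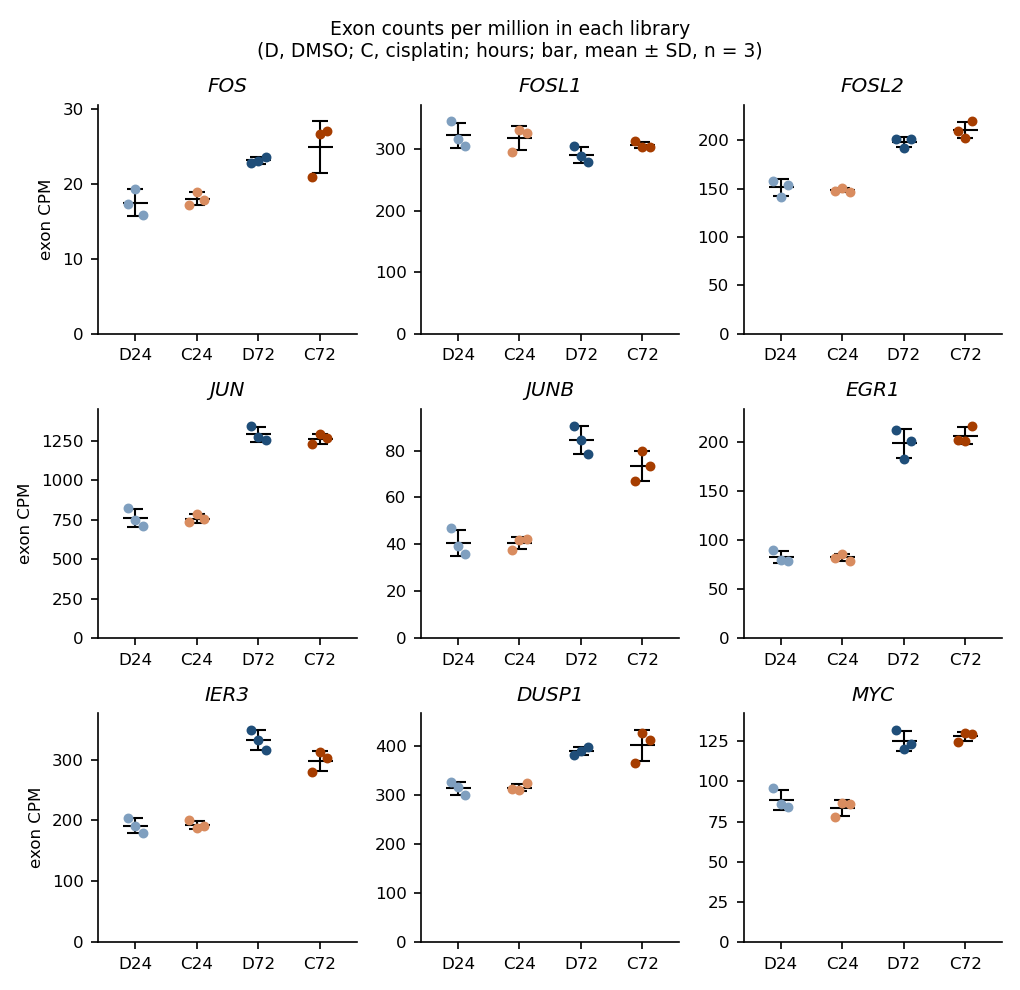
Exon CPM of the 9 members with exon entries in each of the 12 libraries (y axis, from 0; points, libraries; bars, mean ± SD, n = 3; D, DMSO; C, cisplatin; 24 and 72 h). The points at 72 h lie above those at 24 h for every member but FOSL1, and the DMSO and cisplatin points of a time lie close together.

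EGR1 changed most. This gene (ENSG00000120738, chr5:138465479-138469303, plus strand, 2 exons) had 89.7, 80.0 and 79.0 exon CPM in DMSO at 24 h and 211.8, 183.1 and 201.2 CPM in DMSO at 72 h. In cisplatin it had 81.9, 85.8 and 78.9 CPM at 24 h and 201.9, 201.2 and 216.5 CPM at 72 h. Each library at 72 h was thus more than 2 times as high as any at 24 h. The log2 change was 1.26 (SE 0.063, adjusted p = 2.5e-14) in DMSO, which is 2.40-fold (95% interval 2.19 to 2.62), and 1.33 (SE 0.063, adjusted p = 1.2e-14) in cisplatin, which is 2.51-fold. These changes were above those of 96% and 96.8% of the genes tested.

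Among the AP-1 subunits, JUNB (ENSG00000171223, chr19:12791486-12793315, plus strand, a single exon) changed most. It had 46.9, 39.4 and 36.1 exon CPM in DMSO at 24 h and 90.6, 84.4 and 78.4 CPM at 72 h. In cisplatin, the values were 37.6, 42.0 and 42.4 CPM at 24 h and 67.0, 80.0 and 73.2 CPM at 72 h. The times stood apart in both treatments. The log2 change was 1.04 (SE 0.085, adjusted p = 1.63e-10) in DMSO and 0.85 (SE 0.085, adjusted p = 5.54e-09) in cisplatin. JUNB lies over its whole 1830 bases within HOOK2, a gene of the opposite strand. The libraries were made with a directional kit, but the strand option of the counting is not stated. It cannot be told whether reads of both genes were kept apart there. HOOK2 itself had between 3.23 and 6.54 exon CPM at 24 h and between 9.82 and 11.9 exon CPM at 72 h.

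JUN, the main partner of FOS proteins (ENSG00000177606, chr1:58776845-58784048, minus strand, 1 exon in its canonical transcript), was the member with the most counts. Its exon CPM were 821.2, 748.2 and 710.2 in DMSO at 24 h and 1345, 1276 and 1255 at 72 h. In cisplatin, they were 733.3, 785.4 and 752.9 at 24 h and 1230, 1294 and 1267 at 72 h. The log2 change of JUN was 0.77 (SE 0.052, adjusted p = 7.5e-12) in DMSO and 0.74 (SE 0.052, adjusted p = 1.57e-11) in cisplatin, and the times did not overlap.

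The log2 changes in the FOS family were smaller than those of JUN and JUNB and differed in sign. FOS itself (ENSG00000170345, chr14:75278826-75282230, plus strand, 4 exons) had 17.2, 19.3 and 15.8 exon CPM in DMSO at 24 h and 22.7, 23.0 and 23.6 CPM at 72 h. In cisplatin it had 17.2, 18.9 and 17.9 CPM at 24 h and 20.8, 26.6 and 27.0 CPM at 72 h. The groups of both times were apart, with log2 changes of 0.40 (SE 0.098, adjusted p = 0.00104) in DMSO and 0.46 (SE 0.095, adjusted p = 0.000207) in cisplatin. FOSL2, also named FRA2 (ENSG00000075426, chr2:28392448-28417317, plus strand, 4 exons), went from 158.2, 141.6 and 153.6 CPM to 201.5, 191.9 and 201.1 CPM in DMSO. In cisplatin it went from 147.4, 150.4 and 146.6 CPM to 209.9, 202.2 and 219.3 CPM. Its log2 changes were 0.39 (SE 0.053, adjusted p = 6.2e-07) and 0.51 (SE 0.052, adjusted p = 1.19e-08).

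FOSL1, also named FRA1 (ENSG00000175592, chr11:65892049-65900573, minus strand, 4 exons), was the exception. Its exon CPM were 345.5, 317.6 and 306.0 in DMSO at 24 h and 305.6, 289.2 and 279.9 at 72 h, so that the groups stood apart by less than 1 CPM. In cisplatin they were 296.1, 332.2 and 327.3 at 24 h and 313.4, 304.5 and 303.5 at 72 h, which overlap. The log2 change in DMSO was -0.15 (SE 0.055, adjusted p = 0.0218), or 0.902-fold. Without replicate 1 of DMSO at 24 h it was -0.098 (adjusted p = 0.14), without replicate 2 of DMSO at 72 h -0.14 (adjusted p = 0.0535) and without replicate 3 of DMSO at 72 h -0.12 (adjusted p = 0.101), so that this call rested on each of the 3 libraries. The change in cisplatin was -0.053 (SE 0.055, adjusted p = 0.416).

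IER3, a regulator of survival under stress (ENSG00000137331, chr6:30743199-30744548, minus strand, 2 exons), had 203.9, 191.5 and 179.1 exon CPM in DMSO at 24 h and 348.2, 331.6 and 315.6 CPM at 72 h. In cisplatin, it had 200.5, 188.3 and 190.9 CPM at 24 h and 279.7, 312.0 and 302.4 CPM at 72 h. The libraries of the times were far apart, and the log2 changes were 0.79 (SE 0.057, adjusted p = 1.99e-11) in DMSO and 0.63 (SE 0.057, adjusted p = 1.33e-09) in cisplatin. DUSP1 (ENSG00000120129, chr5:172768096-172771195, minus strand, 4 exons) had 325.7, 315.4 and 300.2 CPM in DMSO at 24 h and 381.6, 389.7 and 398.5 CPM at 72 h. Its values in cisplatin were 311.6, 309.7 and 323.5 CPM at 24 h and 365.8, 425.1 and 411.4 CPM at 72 h. The rise of DUSP1 was the smallest among the 8 members that rose, with log2 changes of 0.31 (SE 0.054, adjusted p = 2.03e-05) and 0.35 (SE 0.054, adjusted p = 5.2e-06).

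MYC (ENSG00000136997, chr8:127735434-127742951, plus strand, 3 exons in its canonical transcript) had 95.8, 86.0 and 84.0 exon CPM in DMSO at 24 h and 131.8, 120.2 and 123.5 CPM at 72 h. In cisplatin, it had 77.6, 86.4 and 86.2 CPM at 24 h and 124.7, 129.8 and 129.5 CPM at 72 h. The times stood apart in both treatments. MYC exon counts rose by 0.50 on the log2 scale (SE 0.061, adjusted p = 1.6e-07) in DMSO, which is 1.41-fold (95% interval 1.29 to 1.54), and by 0.62 (SE 0.061, adjusted p = 5.4e-09) in cisplatin, which is 1.53-fold (95% interval 1.41 to 1.67).

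Intron counts in poly(A) RNA come largely from transcripts that still hold an intron, and they were tested in the same way for the 8 members with an intron entry. Between the times in DMSO, 3 of 8 members were called (33.4% of the 9618 genes tested), IER2 and IER3 higher and FOSL1 lower at 72 h. In cisplatin, 4 of 8 were called (31.8% of genes), IER2, IER3 and EGR1 higher and DUSP1 lower. EGR1 passed the filter on low intron counts only through libraries at 72 h, where it is high, so that its call is no support for a difference, and 3 of the other 7 members were called. The median log2 change of intron counts was 0.21 in DMSO and 0.17 in cisplatin over the 8 members, and -0.011 and -0.016 over all genes. These member medians include EGR1. Without it, the middle value of the other 7 members was -0.024 (DUSP1) in DMSO and -0.0056 (MYC) in cisplatin, close to the medians over all genes.

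IER2, which encodes a small nuclear protein (ENSG00000160888, chr19:13150411-13154911, plus strand, 2 exons), was measured by its intron alone. Its intron counts were 87, 100 and 87 in DMSO at 24 h and 199, 203 and 326 at 72 h, which scaled to library size are 46.1, 50.9 and 61.6 intron CPM against 116.9, 112.0 and 111.9 intron CPM. In cisplatin it had 43.5, 54.3 and 46.3 intron CPM at 24 h and 85.3, 106.9 and 95.5 intron CPM at 72 h. The times did not overlap. The log2 change of IER2 intron counts was 1.11 (SE 0.15, adjusted p = 1.7e-08) in DMSO and 0.98 (SE 0.15, adjusted p = 2.87e-07) in cisplatin. Lower counts lay behind IER3, with 35 to 53 intron counts in the libraries of DMSO at 24 h and 70 to 110 in those at 72 h. Its intron log2 change was 0.62 (SE 0.20, adjusted p = 0.0106) in DMSO and 0.57 (SE 0.18, adjusted p = 0.0135) in cisplatin, the latter at 0.48 (adjusted p = 0.0694) without replicate 1 of cisplatin at 24 h.

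The intron of EGR1 gave 3 to 6 counts in a library at 24 h and 6 to 32 at 72 h. Given as a description, for the reason above, its log2 change was 1.25 (SE 0.50, adjusted p = 0.0495) in cisplatin and 1.21 (SE 0.56, adjusted p = 0.0863) in DMSO. The call in cisplatin was lost when any of the 3 replicates at 24 h or replicates 1 or 2 at 72 h of cisplatin were left out (log2 changes of 0.99 to 1.29, adjusted p of 0.0847 to 0.226), and under each of the 5 other settings that tested it. The fits to the 6 libraries of a comparison did not keep it. The 5 settings were the replicate number as a block (1.25, adjusted p = 0.0567), DESeq2 (1.24, adjusted p = 0.144), its size factors in edgeR (1.25, adjusted p = 0.05002), no low-count filter (1.25, adjusted p = 0.0805) and exon library sizes (1.17, adjusted p = 0.0731). FOS had 6 to 40 intron counts in a library, and its intron changes were -0.39 (SE 0.42) in DMSO and -0.09 (SE 0.38) in cisplatin, with neither passing the test. For FOSL1, intron counts were lower by a log2 change of -0.27 (SE 0.11, adjusted p = 0.0417) in DMSO, a call lost with DESeq2 (adjusted p = 0.0571) and without any 1 of 5 libraries, namely the 3 of DMSO at 24 h and replicates 1 and 2 of DMSO at 72 h (log2 changes of -0.30 to -0.21, adjusted p of 0.06 to 0.179). FOSL2 had 41 to 201 intron counts in a library, with intron changes of 0.45 (SE 0.19, adjusted p = 0.0638) in DMSO, where it passed the test without replicate 1 at 24 h (0.57, adjusted p = 0.0475), and 0.35 (adjusted p = 0.133) in cisplatin. In cisplatin, the FOSL1 intron change was -0.26 (SE 0.10, adjusted p = 0.0512), and it passed the test with DESeq2 size factors (-0.26, adjusted p = 0.0474), exon library sizes (-0.33, adjusted p = 0.0321) and without replicate 1 (-0.34, adjusted p = 0.0168) or 3 (-0.31, adjusted p = 0.0313) of cisplatin at 24 h.

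For MYC and DUSP1, the intron changes lay near or below 0 while the exon counts were higher at 72 h. MYC had 162.6, 127.3 and 143.8 intron CPM in DMSO at 24 h and 140.4, 147.4 and 131.1 intron CPM at 72 h. In cisplatin, its intron CPM were 138.5, 146.6 and 131.4 at 24 h and 127.9, 135.4 and 155.5 at 72 h. All 4 groups of MYC overlapped, with intron log2 changes of -0.054 (95% interval -0.29 to 0.18) in DMSO and -0.0056 (-0.24 to 0.22) in cisplatin. DUSP1 had 113.9, 103.4 and 85.7 intron CPM in DMSO at 24 h and 94.0, 114.8 and 92.0 intron CPM at 72 h, and 121.3, 125.2 and 147.1 against 93.1, 105.4 and 86.1 intron CPM in cisplatin. The DUSP1 intron change was -0.024 (SE 0.14) in DMSO and -0.45 (SE 0.13, adjusted p = 0.00514) in cisplatin, where the times did not overlap.

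An lncRNA on the opposite strand overlaps DUSP1 over its whole 3100 bases, and CASC11, also an lncRNA of the opposite strand, overlaps MYC over 3554 bases. The libraries were made with a directional kit, but the strand option of the counting is not stated. It cannot be told whether reads of these lncRNAs were kept apart from exon and intron reads of DUSP1 and MYC. Shorter stretches of FOSL2, IER2 and IER3 are overlapped in the same way.

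**Figure D2:**
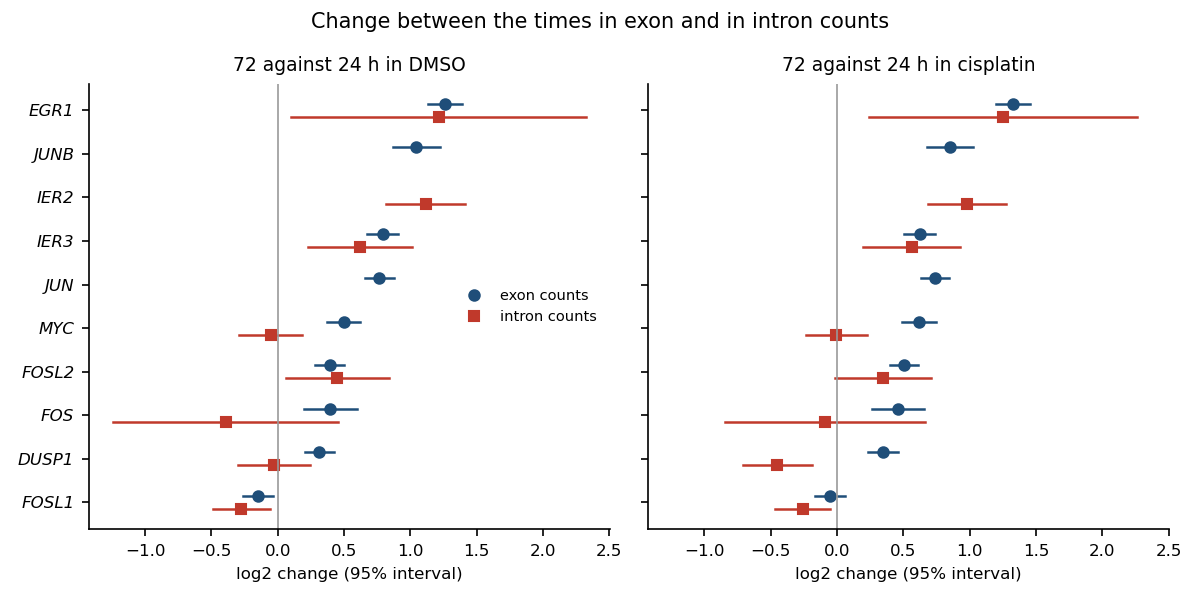
Log2 change from 24 to 72 h in DMSO (left) and in cisplatin (right) for exon counts (circles) and intron counts (squares) of each member, with 95% intervals as horizontal lines from the edgeR fits. For MYC and DUSP1 the exon interval lies above 0 while the intron interval of MYC holds 0 in both treatments and that of DUSP1 in cisplatin lies below 0.

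The exon/intron ratio sets both counts of a gene against each other within a library. For the 7 members with both entries, edgeR called 2 of 7 between the times in DMSO (11.5% of the 9380 genes tested) and 2 of 7 in cisplatin (11.9% of genes), in each case MYC and DUSP1 and each higher at 72 h. The median log2 change of the ratio was 0.23 in DMSO and 0.26 in cisplatin over the members, and 0.10 and 0.11 over all genes. These member medians include EGR1, which reached the minimum intron count of this test only in libraries at 72 h. Without EGR1, the 2 middle values of the other members were 0.23 (IER3) and 0.41 (DUSP1) in DMSO. In cisplatin, the 2 middle values were 0.26 (FOSL1) and 0.60 (FOS).

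The ratio of MYC was 8.13, 9.85 and 7.68 in DMSO at 24 h and 13.9, 11.9 and 13.5 at 72 h. In cisplatin, it was 7.34, 7.28 and 9.29 at 24 h and 13.7, 13.2 and 11.1 at 72 h. All 6 libraries at 72 h lay above all 6 at 24 h. The log2 change was 0.62 (SE 0.14, adjusted p = 0.00502) in DMSO and 0.69 (SE 0.14, adjusted p = 0.00142) in cisplatin. As a share of all its counts, the introns of MYC held 10.6% ± 1.201 in DMSO at 24 h and 7.12% ± 0.569 at 72 h (SD, n = 3), more than in any other member.

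The ratio of DUSP1 was 39.5, 44.5 and 46.0 in DMSO at 24 h and 60.2, 49.4 and 62.2 at 72 h. In cisplatin, it was 33.6, 30.5 and 31.1 at 24 h and 55.3, 55.6 and 63.9 at 72 h. The times were apart in both treatments, and the lowest values were those of cisplatin at 24 h. The log2 change was 0.87 (SE 0.12, adjusted p = 2.3e-05) in cisplatin and 0.41 (SE 0.13, adjusted p = 0.0405) in DMSO. The call in DMSO was lost with the replicate number as a block (0.40, adjusted p = 0.0586) and without any 1 of 5 of the 6 libraries compared (all but replicate 2 of DMSO at 72 h, with log2 changes of 0.33 to 0.45 and adjusted p of 0.053 to 0.176). For the other 5 members, the ratio changes ranged from 0.011 (FOSL2) to 0.85 (FOS, SE 0.37, adjusted p = 0.142) in DMSO and from 0.11 (EGR1) to 0.60 (FOS, SE 0.32, adjusted p = 0.222) in cisplatin. FOS and EGR1 had the fewest intron counts and the largest standard errors, and EGR1 reached the minimum of 10 intron counts only in libraries at 72 h.

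**Figure D3:**
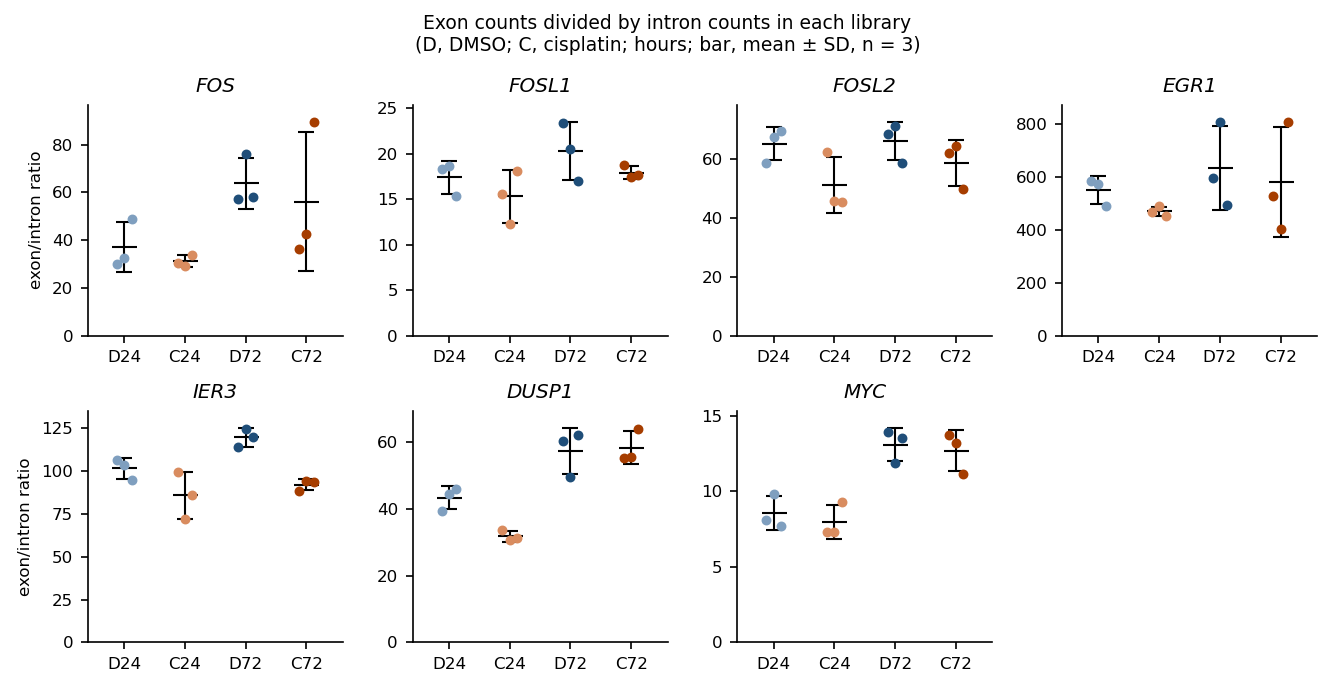
Exon counts divided by intron counts in each of the 12 libraries for the 7 members with both entries (y axis, from 0; points, libraries; bars, mean ± SD, n = 3; D, DMSO; C, cisplatin; 24 and 72 h). MYC and DUSP1 have their highest ratios at 72 h in both treatments, and the ratio of IER3 at 72 h is lower in cisplatin than in DMSO in all 3 libraries.

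The second comparison asked how cisplatin and DMSO differed at the same time. At 24 h, exon counts of 0 of 9 members were called (0% of the 10444 genes), 0 members had an unadjusted p under 0.05 and DESeq2 called 0. The exon log2 changes of the members lay between -0.087 (MYC) and 0.039 (FOS), and their 95% intervals together spanned -0.22 to 0.25, or 0.861-fold to 1.19-fold. For EGR1 the change was -0.011 (95% interval -0.14 to 0.12) and for JUN -0.0052 (-0.11 to 0.10). The cisplatin and DMSO libraries overlapped for all 9 members, while 6.42% of all genes did not overlap.

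At 72 h, 0 of 9 members were called by exon counts (0.0287% of genes), by edgeR and, among the 8 with an adjusted p, by DESeq2. An unadjusted p under 0.05 was found for 2 members. JUNB had 90.6, 84.4 and 78.4 CPM in DMSO against 67.0, 80.0 and 73.2 CPM in cisplatin, which overlap, with a log2 change of -0.20 (SE 0.081, adjusted p = 0.319). IER3 had 348.2, 331.6 and 315.6 CPM against 279.7, 312.0 and 302.4 CPM, which do not overlap, with a log2 change of -0.15 (SE 0.056, adjusted p = 0.271). FOSL2 also stood apart, with 191.9 to 201.5 CPM in DMSO and 202.2 to 219.3 CPM in cisplatin and a log2 change of 0.086 (SE 0.052, adjusted p = 0.508). These 2 of 9 members without overlap stand against 18.1% of all genes. The 95% intervals of the 9 members spanned -0.37 to 0.29, or 0.776-fold to 1.22-fold, so that a change of 2-fold in either direction lay outside each of them. In the test of the difference of the cisplatin effect between 72 and 24 h, 0 of 9 members (0% of genes) were called by edgeR and 0 by DESeq2, and 1 had an unadjusted p under 0.05, IER3 with a log2 difference of -0.17 (SE 0.080, adjusted p = 0.53).

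Intron counts of 0 of 8 members were called at 24 h (0.0208% of genes) and 0 of 8 at 72 h (0.0416% of genes), and 0 of 8 for the difference between the times (0.0416% of genes). DESeq2 called 0 members in each of these tests. The 1 member with an unadjusted p under 0.05 at 24 h was DUSP1, with a log2 change of 0.36 (SE 0.13, adjusted p = 0.942), and there were 0 such members at 72 h. For the difference between the times, DUSP1 was again the 1 such member (-0.42, adjusted p = 0.828). DUSP1 intron CPM were 113.9, 103.4 and 85.7 in DMSO and 121.3, 125.2 and 147.1 in cisplatin at 24 h, without overlap. For IER2, the intron change was -0.11 (95% interval -0.44 to 0.22) at 24 h and -0.24 (-0.50 to 0.026) at 72 h.

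The study that made these data compared the exon/intron ratio between cisplatin and DMSO, as a measure of unspliced RNA. With the replicate spread in the test (edgeR), 0 of 7 members were called at 24 h (0% of genes) and 0 of 7 at 72 h (0.0213% of genes), and 0 of 7 for the difference between the times (0% of genes). At 24 h the ratio changes of all 7 members were below 0, with a median of -0.22. That median is the value of EGR1, which had 3 to 6 intron counts in a library at 24 h. Most genes were below 0 as well, with a median of -0.086 over all genes (quartiles -0.23 and 0.060). At 72 h, 6 of 7 were below 0, with a median of -0.16 over the members and -0.084 over all genes (quartiles -0.22 and 0.048). An unadjusted p under 0.05 was found for DUSP1 at 24 h (-0.44, SE 0.13, adjusted p = 0.721), whose ratios of 30.5 to 33.6 in cisplatin lay below the 39.5 to 46.0 in DMSO. It was also found for IER3 at 72 h (-0.38, SE 0.14, adjusted p = 0.708), whose ratios were 114.1, 124.9 and 120.0 in DMSO and 88.2, 94.4 and 94.0 in cisplatin. For the difference of the cisplatin effect between the times, DUSP1 was the 1 member with an unadjusted p under 0.05 (0.46, SE 0.18, adjusted p = 0.998).

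The logistic regression of exon against intron counts, which treats reads as independent and has no term for the spread between replicates, called more members. At 24 h, it called 2 of 7 (11.5% of genes), DUSP1 with -0.44 (adjusted p = 1.39e-05) and FOSL1 with -0.31 (adjusted p = 3.2e-06), both lower in cisplatin. Without replicate 2 of cisplatin at 24 h, the change of FOSL1 was -0.081 (adjusted p = 0.576). At 72 h, it called 1 of 7 (11.4% of genes), IER3 with -0.37 (adjusted p = 0.0149), at -0.35 (adjusted p = 0.0581) without replicate 2 and -0.37 (adjusted p = 0.0591) without replicate 3 of DMSO at 72 h. Between the times it called 4 of 7 in DMSO (33.7% of genes), namely MYC, DUSP1, FOS and FOSL1, and 3 of 7 in cisplatin (40.6% of genes), namely DUSP1, MYC and FOSL1, each higher at 72 h. In DMSO, the call of FOS (0.86, adjusted p = 0.038) was lost without any 1 of the 6 libraries but replicate 3 at 24 h (0.75 to 0.94, adjusted p of 0.0524 to 0.14). That of FOSL1 in DMSO (0.15, adjusted p = 0.0336) was lost without replicate 3 at 24 h (0.076), replicate 1 at 72 h (0.051) or replicate 2 at 72 h (0.12), and in cisplatin (0.33) without replicate 2 at 24 h (0.10, adjusted p = 0.211). In simulated counts, this regression called 1278 of 9165 unchanged genes and edgeR 12 of 9069. There, exon and intron counts were drawn separately, each with its own spread from the real libraries. Spread that both counts of a gene share in a library was not kept, so these numbers do not give the rate of such calls in the real libraries.

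**Figure D4:**
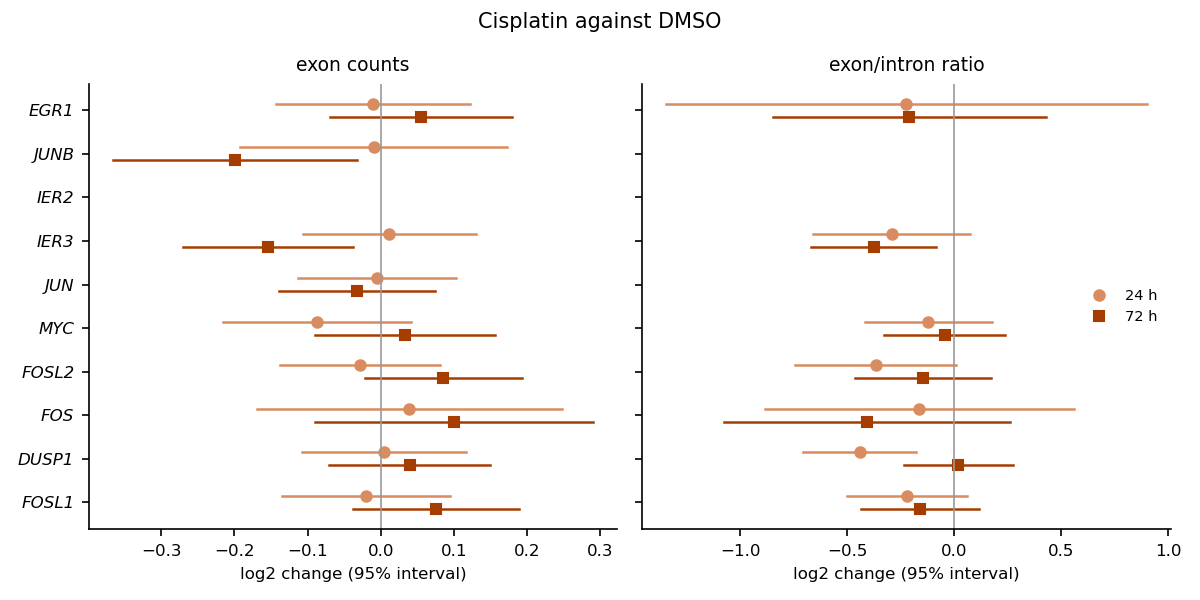
Log2 change of cisplatin against DMSO at 24 h (circles) and 72 h (squares) for exon counts (left) and for the exon/intron ratio by edgeR (right), with 95% intervals as horizontal lines. The axes differ in range. The exon intervals lie within -0.37 and 0.29 and those of the ratio are wider, most of all for EGR1 and FOS, which have few intron counts.

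The other genes of the pathway are given from lists by name, which were chosen with earlier results of these data known, and each list stands beside the median of 0.015 in DMSO and 0.017 in cisplatin over all genes tested. The counts of called genes likewise stand beside 65.1% of all genes called in DMSO (32.6% higher, 32.5% lower) and 63.5% in cisplatin (32% higher, 31.5% lower). Of 34 further immediate early genes, 17 passed the filter on low counts. Between the times, 5 of these 17 were higher and 3 lower in DMSO (median log2 change of exon counts 0.028), and 5 were higher and 2 lower in cisplatin (median 0.13). The shares called, 47.1% and 41.2%, were below those of all genes, and the share called higher was 29.4% in each treatment, against 32.6% and 32% of all genes. The largest changes were those of GADD45B, a stress sensor of the MAP kinase route (0.96 in DMSO and 0.79 in cisplatin), PLK3, a stress-induced polo-like kinase (0.77 and 0.68), BTG1, an antiproliferative factor (0.62 and 0.43), and CSRNP1, a nuclear protein induced by AXIN1 (0.59 and 0.51). Their median was thus below the 0.50 and 0.62 of the members.

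Upstream of the members, 26 of 27 kinases and transcription factors were tested, with 6 higher and 11 lower in DMSO and 10 higher and 9 lower in cisplatin. The shares called, 65.4% and 73.1%, stand near and above the 65.1% and 63.5% of all genes. RPS6KA1, an ERK-activated S6 kinase, had log2 changes of -0.82 and -0.71, and RPS6KA4, a kinase of histone H3, -0.73 and -0.64. MAPK3, which encodes ERK1, rose by 0.55 and ATF1 by 0.50 in DMSO, while RPS6KA5 rose by 0.58 and EGFR by 0.53 in cisplatin. A list of 18 genes, labelled ERK feedback genes in the plot of the lists, held DUSP, SPRY and SPRED genes, which restrain MAP kinase signaling like DUSP1, and 3 ETS factors that ERK induces (ETV1, ETV4 and ETV5). Of these, 12 were tested, with 5 higher and 2 lower in DMSO (median 0.12) and 8 higher and 2 lower in cisplatin (median 0.23), so that 41.7% and 66.7% were called higher against 32.6% and 32% of all genes. DUSP2, a nuclear phosphatase of MAP kinases, fell by 2.08 and 1.66 on the log2 scale, opposite to DUSP1. DUSP5, a nuclear phosphatase of ERK, rose by 0.61 and 0.68 and the ETS factor ETV1 by 0.63 and 0.78, and the list's largest other changes were those of DUSP16 in DMSO (0.40) and SPRED3 in cisplatin (0.38).

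Downstream, 13 of 16 AP-1 target genes were tested, of which 5 were higher and 5 lower in DMSO and 4 higher and 5 lower in cisplatin, with medians of 0.14 and -0.015. The shares called higher were 38.5% and 30.8%, against 32.6% and 32% of all genes. HMOX1, heme oxygenase, rose by 1.25 and 1.13 and the cytokine IL6 by 0.99 and 0.95. VEGFA rose by 0.93 in DMSO and the protease MMP10 fell by 1.24 in cisplatin. Of 18 partners and regulators of MYC, 15 were tested, with 6 higher and 4 lower in DMSO and 6 higher and 3 lower in cisplatin. The shares called, 66.7% and 60%, were close to those of all genes. MXI1 and MXD1, antagonists of MYC that share its partner MAX, rose by 2.00 and 0.68 in DMSO and by 1.46 and 0.67 in cisplatin. MYCBP, a MYC binding protein, fell by 1.49 and 1.52 and AURKA, a mitotic kinase that stabilizes MYC proteins, by 0.71 and 0.78.

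Most of the MYC target genes tested were called lower at 72 h, while MYC was higher. Of 26 listed genes of ribosome production, metabolism and growth, 23 were tested, and 19 were lower and 1 was higher at 72 h in DMSO, with a median log2 change of -0.38. In cisplatin, 19 were lower and 1 was higher, with a median of -0.47. These 19 of 23 genes, 82.6%, stand against 32.5% of all genes called lower in DMSO and 31.5% in cisplatin, and 3 of the 23 genes did not pass the test in either direction in each treatment. TFRC, the transferrin receptor, fell by 2.12 and 1.92, NOLC1, a nucleolar chaperone, by 1.13 and 1.06 and LDHA, lactate dehydrogenase A, by 0.96 and 1.01. NME1, whose reads may be shared with its near copy NME2, fell by 1.02 in DMSO and TERT, the catalytic subunit of telomerase, by 1.35 in cisplatin. Of 21 p53 target genes, 14 were tested, with 5 higher and 0 lower in each treatment by edgeR (6 and 7 genes of the list with an unadjusted p under 0.05). The 35.7% called higher stand near the 32.6% and 32% of all genes. GDF15, a stress cytokine, rose by 2.62 and 2.33, SESN2, a sestrin, by 2.41 and 2.40, and the death receptor TNFRSF10B by 0.40 and 0.59. Between cisplatin and DMSO, 0 genes of any of these 7 lists were called by edgeR in exon counts at 24 or 72 h, with between 0 and 4 genes of a list at an unadjusted p under 0.05.

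**Figure D5:**
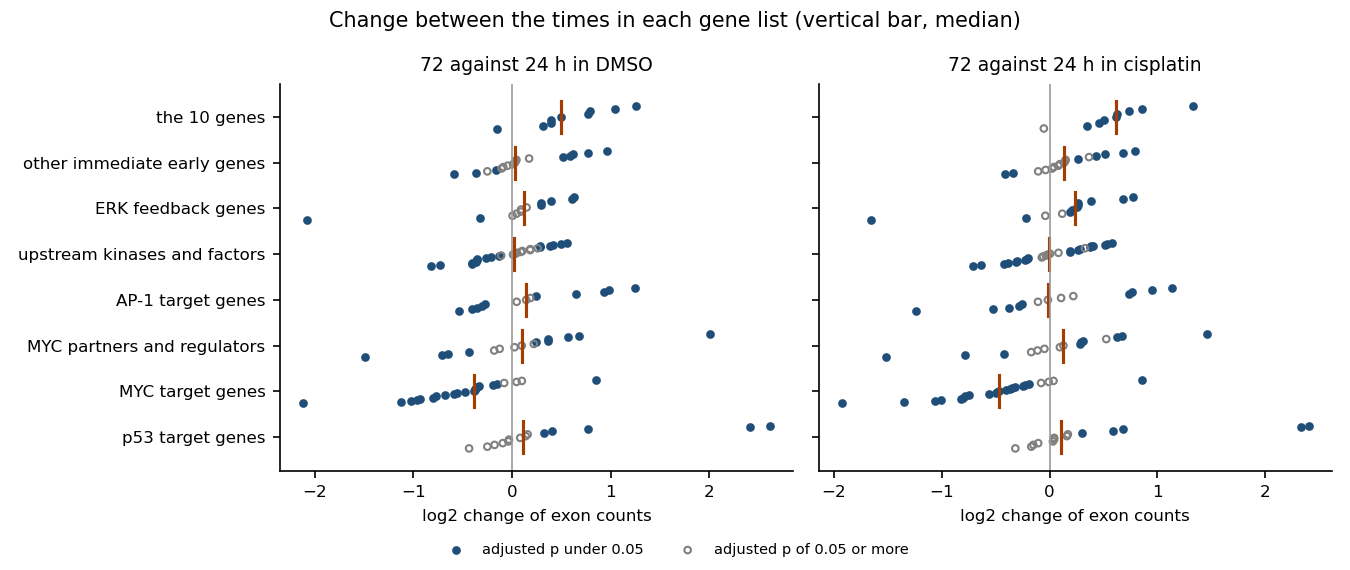
Log2 change of exon counts from 24 to 72 h in DMSO (left) and cisplatin (right) for each gene of the members and of the 7 lists (points, filled where the adjusted p by edgeR was under 0.05; vertical bars, medians). The members' median is the highest and that of the MYC target genes is the lowest of the medians shown.

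Across the 12 libraries, the log2 exon CPM of the members other than FOSL1 moved together, with Pearson's r between 0.853 (FOS with FOSL2) and 0.993 (JUN with EGR1). FOSL1 had r between -0.60 (with IER3) and -0.43 (with MYC) to the others. All of these points share the division into 2 times, so that r describes the time difference and no test was made. Among 9555 genes with a mean of at least 50 exon counts, those most like EGR1 were TRIM25 (r = 0.998), OAS2 (0.998) and UBALD2 (0.997), and those most like JUN were HMGA1 (0.998), SHFL (0.998) and TOLLIP (0.997). For MYC they were TFE3 (0.993), MOV10 (0.992) and ZNF76 (0.992). FOS, with the fewest counts, had its nearest patterns in SLC25A29 (0.977), S100A6 (0.965) and BBLN (0.963).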

How the data were processed

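RNA-seq libraries of TYK-nu cells in 4 groups of 3 replicates were re-analyzed. The authors trimmed reads with Trim Galore 0.6.0 after FastQC 0.11.8, aligned them with HISAT2 2.1.0 to GRCh38 and used HTSeq for exons and introns of Ensembl release 98; the deposited values are raw counts of fragments per gene, not normalized or pooled. The libraries were made with a directional kit. The strand option of the counting and any filter on low counts are not stated in the sources used here, so antisense and overlapping genes are uncertain. Counts without molecular identifiers limit precision for members with few intron counts.

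Identifiers were matched to GENCODE release 44 (17485 of 17508). Exon and intron counts were each fitted with edgeR 4.0.16 (quasi-likelihood, filterByExpr, TMM) in R 4.3.3, with the 12 libraries in 1 fit and Benjamini-Hochberg adjustment over all genes tested (threshold 0.05). CPM are counts scaled to the TMM-adjusted library size. The exon/intron ratio was tested in edgeR with a term for each library (genes with 10 or more exon and 10 or more intron counts in 3 or more libraries) and by logistic regression, the model the study used, here with a Wald test and only for genes above 0 in both measures in all 6 libraries, 2 choices that the study does not state. P-values measure the spread between triplicate cultures of 1 line.

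The scripts were tested on simulated data for cisplatin against DMSO at 72 h: of genes changed 2-fold, edgeR recovered 194 of 200 by exon counts, 165 of 198 by intron counts and 156 of 195 by the ratio, and the logistic regression 183 of 199. For the ratio, exon and intron counts were drawn separately. Alternatives were DESeq2 1.42.0 and its size factors, no low-count filter, a block for the replicate number, separate fits of the 6 libraries of a comparison, other minimum counts, a quasi-binomial model, exon library sizes for introns, and each library left out in turn. The members and lists were chosen with earlier results of these data known. All 10 members are named, from each list at most 4 genes in a comparison (largest absolute log2 change among those called by exon counts), and the 3 genes of highest correlation for 4 members (log2 CPM, prior count 2). A gene that this rule would name is not reported here.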

Additional observations from a re-analysis of the deposited data

How the results depend on the processing

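In exon counts, the alternatives left the number of members called between the times at 8 or 9 and between cisplatin and DMSO at 0. With a replicate block, the edgeR ratio called 1 member in place of 2 between the times in DMSO, and leaving out each library gave 1 to 2. For the logistic regression, the quasi-binomial model called 0 members at 24 h and 0 at 72 h between cisplatin and DMSO (2 and 1 before), and 0 in DMSO and 1 in cisplatin between the times (4 and 3 before); the block gave 2 at 72 h. Leaving out each library gave 1 to 3 members for cisplatin at 24 h, 0 to 2 at 72 h, and 2 to 3 in DMSO and 2 to 4 in cisplatin between the times, where FOSL2 (adjusted p = 0.0112 and 0.0161) or FOS (0.0389) was gained or FOSL1 lost. For the block, libraries with the same number did not deviate together (correlations -0.108 to 0.102), although in cisplatin between the times 3 of 3 correlated best with their own number; it also ended the calls of EGR1 introns in cisplatin and of FOS by logistic regression in DMSO (0.83, adjusted p = 0.0536).

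Over all genes, cisplatin against DMSO in exon counts at 72 h gave 3 genes by edgeR, 93 by DESeq2 and 154 with no filter, and at 24 h 0 and 7 with no filter (difference between the times, 0 and 20). In intron counts, the 2 genes at 24 h became 0 with DESeq2, the block or exon library sizes and 5 with no filter; the 4 at 72 h became 19 with no filter and 26 in the fit to 6 libraries; the 4 for the difference became 0 with DESeq2, the block or exon library sizes and 11 with no filter. The ratio at 72 h gave 2 genes and 4 with a minimum of 1 count. The quasi-binomial model took the logistic regression from 1110, 1144, 3278 and 3984 genes to 0, 0, 64 and 97. The cause of these shifts was not tested. Intron counts of FOS and EGR1, at most 40 in a library, limit what their ratio can show.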
